A study of Mus musculus with 22 samples.

Results

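Serotonin receptors are encoded by a family of genes, and 10 of these genes were followed through the postnatal mouse brain: Htr1a, Htr1b, Htr1d, Htr2a, Htr2c, Htr3a, Htr4, Htr5a, Htr6 and Htr7. They were chosen by name among the 20129 gene symbols that could be attached to array probes, with earlier results of these data known. Serotonin is made by a small set of neurons in the raphe nuclei of the brain stem, whose axons reach nearly the whole brain, so the response of a region depends on which receptors its cells carry. Most receptors of the family act through G proteins: the Htr1 and Htr5 members couple to Gi/o and lower cyclic AMP, the Htr2 members couple to Gq and phospholipase C, and Htr4, Htr6 and Htr7 couple to Gs and raise cyclic AMP. Htr3a encodes a subunit of a cation channel that serotonin opens directly.

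The expression densities were measured by Transcriptome Tomography, in which a brain is cut into serial slabs along 1 axis and the RNA of each slab, or fraction, is hybridised to a microarray. All brains came from male C57BL/6J mice, an inbred strain, with no treatment named. A first mouse gave 10 coronal fractions, another animal gave 6 horizontal ones and a further animal gave 6 sagittal ones, so axis and animal cannot be told apart and no fraction had a replicate. The age was postnatal day 7 by the sample titles and 3 days by the age field, and the end of the brain that fraction 1 came from was not labelled. Coronal fraction 10 joined slabs 10 and 11, sagittal fraction 1 joined slabs 1 and 2, and sagittal fraction 6 joined slabs 7 to 9.

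Levels are processed intensities on the log2 scale, counted from the 75th percentile of their array, so 0 is that percentile and a difference of 1 is a doubling of signal. A level belongs to 1 probe, and levels of different genes were not set against each other. An array detected 53.2% to 75.5% of the 55600 probes. The 8 brain tissue markers, such as Snap25 and Gfap, were well above background in all 22 fractions. Bone, blood and muscle genes were read as well, and the bone gene Ibsp stood at 1.61 and 1.69 in sagittal fractions 2 and 6 and at or below -2.27 in every other fraction. On 7 arrays (coronal 1 and 2, horizontal 1 to 3, sagittal 1 and 3) the slope of the spiked-in control RNAs was outside the scanner software's range, at 0.773 to 0.891 against 0.949 to 1.07 on the other 15 arrays. The lowest-dose control, a107, was also brighter on those 7 arrays, at 6.39 to 7.94 on the log2 scale against 3.07 to 4.94. Regional markers gave the axis its landmarks. The hindbrain gene Hoxb5 peaked in coronal fraction 1 (4.44), the Purkinje cell gene Pcp2 in fraction 3 (6.70), the serotonin transporter gene Slc6a4 in fraction 4 (1.31), the thalamic gene Tcf7l2 in fraction 6 (2.23), the striatal gene Drd1 in fraction 8 (0.48) and the olfactory bulb gene Tbx21 in fraction 10 (2.87). In the horizontal series the hypothalamic peptide gene Avp peaked in fraction 6 (5.39).

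Of the 10 receptor genes, 8 passed the detection filter, which asks for a signal well above background in at least 1 fraction of each series, and 5 (Htr2a, Htr2c, Htr3a, Htr4 and Htr7) were well above background in all 22 fractions. Htr1b and Htr5a failed the filter and were not tested. Change along an axis was tested with limma, in 1 model over the 22 arrays that gives each series its own slope and curvature in slab position, with Benjamini-Hochberg adjustment over 39621 probes and a threshold of 0.05. Along the coronal axis 3 of the 8 genes tested passed (Htr2a, Htr2c and Htr3a), where 19.8% of all probes did. Along the horizontal axis 1 of 8 passed (Htr2c), against 6.57% of all probes. That share, 2604 probes, moved with single arrays, to 9 probes without horizontal fraction 1 and 6530 without coronal fraction 2. No receptor gene passed the sagittal linear term, which 10.2% of all probes passed, or the sagittal quadratic term, which 0.0303% passed. The sagittal linear share rested on 1 array, since 0 probes passed that term without sagittal fraction 6. At an unadjusted p under 0.05 the limma counts were 4, 2, 1 and 0 of 8, beside 38.8%, 38.0%, 24.1% and 14.8% of all probes. The median fitted range of the 8 genes was 1.37 log2 units in the coronal series, beside 0.99 for all probes, and 1.19 in the horizontal series, beside 1.00. In the sagittal linear term it was 0.48, beside 0.67. With 8 genes these shares and medians describe the set and single it out from nothing.

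The RefSeq start regions of 3 of the genes are shown first. Htr2c and Htr2a are the Gq-coupled pair that passed the coronal test with unlike patterns, and Htr7, which passed no test, is shown because its levels resembled those of Htr2c within the coronal series. Each runs 5′ to 3′ on the gene's strand from 250 bases before the annotated start to 50 after it, on the GRCm38.p6 build, and capitals mark CG dinucleotides. Htr2c lies at chrX:146962263-146962562 on the plus strand, Htr2a at chr14:74640624-74640923 on the plus strand and Htr7 at chr19:36057311-36057610 on the minus strand.
Htr2c: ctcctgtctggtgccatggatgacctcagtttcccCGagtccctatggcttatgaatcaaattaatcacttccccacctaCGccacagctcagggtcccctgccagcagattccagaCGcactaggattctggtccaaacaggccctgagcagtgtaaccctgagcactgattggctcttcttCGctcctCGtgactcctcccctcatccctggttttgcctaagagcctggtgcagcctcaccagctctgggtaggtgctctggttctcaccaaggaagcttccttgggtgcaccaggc
Htr2a: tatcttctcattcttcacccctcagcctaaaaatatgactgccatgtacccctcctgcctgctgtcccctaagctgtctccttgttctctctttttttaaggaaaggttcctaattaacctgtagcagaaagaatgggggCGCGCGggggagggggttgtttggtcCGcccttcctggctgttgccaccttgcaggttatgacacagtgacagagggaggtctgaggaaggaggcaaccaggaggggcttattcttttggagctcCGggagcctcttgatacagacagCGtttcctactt
Htr7: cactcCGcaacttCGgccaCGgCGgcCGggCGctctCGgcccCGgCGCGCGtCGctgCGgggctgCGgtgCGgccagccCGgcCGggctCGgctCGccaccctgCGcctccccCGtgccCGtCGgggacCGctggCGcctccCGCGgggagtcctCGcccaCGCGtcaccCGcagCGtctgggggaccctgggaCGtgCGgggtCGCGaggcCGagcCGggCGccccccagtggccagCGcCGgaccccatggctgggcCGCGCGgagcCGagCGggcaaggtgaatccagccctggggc
The Htr2c window held 5 CG dinucleotides and 56.3% G and C bases, and the Htr2a window 6 and 52%. Over the 32851 windows of the same length in the table the medians were 7 CG dinucleotides and 52.7%. The Htr7 window held 46 CG dinucleotides and 81% G and C, and 98.4% of all windows held fewer CG dinucleotides. Both strands were searched for 3 motifs, and no match overlapped another. The GC box, spelled GGGCGG, occurred 1 time in the Htr2a window and in 35.7% of all windows. The core of the cyclic AMP response element, spelled TGACG, occurred 1 time in the Htr7 window and in 20.8% of all windows. The TATA box, spelled TATAAA, was in none of the 3 windows and in 13.6% of all windows, and the Htr2c window matched none of the motifs. These matches describe letters in a window and were not tested for any role. Start regions were given for 8 of the 10 genes, and none was given for Htr3a.

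Htr2c encodes the Gq-coupled receptor that is abundant in the choroid plexus and in many neurons, and it was the receptor gene that passed along both the coronal and horizontal axes. In coronal fractions 1 to 10 its levels were 1.59, 0.80, 1.28, 1.64, 2.28, 2.10, 1.98, 1.25, 1.02 and -0.49. The signal was thus highest in the middle of the brain, in fractions 5 to 7, and lowest at the olfactory bulb end. The highest was 6.82-fold above the lowest. The fitted curve spanned 2.23 log2 units (limma adjusted p = 0.00891), with a residual SD of 0.40. In the order of levels, 8 of the 9 steps between neighbouring fractions were smaller than this residual SD, and the exception was the step of 1.30 from fraction 2 down to fraction 10. Without fraction 10 the adjusted p was 0.175, so the coronal call rested on that fraction.

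In horizontal fractions 1 to 6 the levels of Htr2c were -0.49, -0.26, 0.73, 1.41, 2.44 and 1.85. They were low in fractions 1 and 2 and high at the end where Avp was highest, a 7.59-fold span. The fitted end-to-end difference was 2.92 ± 0.48 log2 units (SE from the limma fit, 95% interval 1.89 to 3.95, adjusted p = 0.0142). Of the 5 steps in this order, 4 exceeded the residual SD, and only fractions 1 and 2 lay within it of each other. The 3 low fractions were also the 3 horizontal arrays with a spike-in slope out of range, so position and array state overlap in this series. With the a107 level as a covariate the adjusted p was 0.131, with the 15 in-range arrays alone it was 0.668, and without fraction 1 it was 0.0706. The in-range fit keeps only horizontal fractions 4 to 6. In these 3 fits the horizontal calls over all probes fell from 2604 to 101, 13 and 9, so the loss was not particular to Htr2c.

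In the sagittal series Htr2c was nearly level. The 6 fractions lay between 1.19 and 1.81 with a median of 1.38, and all 5 neighbouring steps were below the residual SD. The end-to-end difference was -0.24 with a 95% interval of -1.33 to 0.86 (limma adjusted p = 0.794), and the middle-against-sides term had an adjusted p of 0.737. Of the other probes for Htr2c, 1 was well above background in 18 fractions and followed the first with r = 0.59. Its limma adjusted p was 0.239 for the coronal axis and 0.0761 for the horizontal axis, with end-to-end differences of the same sign. It was highest in coronal fraction 6 (-2.535) and horizontal fraction 5 (-2.065), but the pattern was repeated only in part. Coronal fraction 5 stood at -3.71, below fraction 2 at -3.27, and horizontal fraction 6 at -4.13, near fraction 3 at -4.18. The remaining probe, well above background in 3 fractions, was not tested.

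Because Htr2c is a choroid plexus gene as well as a neuronal one, the 9 markers listed for the choroid plexus were set beside it. All 9 were measured, and 2 of them (Otx2 and Kl) passed the coronal test, a share near the 19.8% of all probes. Ttr, the transthyretin gene and the most used marker of that tissue, was highest in coronal fractions 3, 7 and 2 (7.90, 7.62 and 7.38) and lowest in fraction 1 (0.17). Htr2c stood at 1.59 in that fraction, and at 0.80 in fraction 2. The mean standardised level of the 9 markers, each gene scaled to mean 0 and SD 1 over the 22 fractions, had its coronal highs in fractions 3 (1.24) and 7 (1.05) and its lows in fractions 9 (-1.67) and 1 (-1.45). Over the 22 fractions this mean correlated with Htr2c at r = 0.40, and over the 10 coronal fractions at r = 0.23. In the horizontal series the marker mean was low in fractions 1 and 2 (-0.86 and -1.16), as Htr2c was, and high in fractions 4 and 5 (1.07 and 0.69), and its part in the horizontal call of Htr2c was not tested. The thalamus markers (6 genes) stood nearer, with r = 0.68 over 22 fractions and 0.80 over the coronal ones. All such r values are descriptions over fractions of the same 3 brains, which share arrays and scaling, and they carry no test. In bulk fractions, fewer cells of a type and less RNA per cell cannot be told apart.

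Htr2a encodes the other Gq-coupled receptor of the set, the cortical receptor at which classical hallucinogens act. In coronal fractions 1 to 10 its levels were -1.51, -2.17, -2.05, -1.44, -0.95, -0.70, -0.63, -0.82, -0.15 and -0.56. The 3 fractions at the hindbrain and cerebellar end were below every one of the 6 fractions from 5 onwards. The end-to-end difference was 1.75 ± 0.42 log2 units (limma, 95% interval 0.84 to 2.66, adjusted p = 0.0261), and the highest fraction was 4.06-fold above the lowest. The call was lost without fraction 2 (adjusted p = 0.0835) or without fraction 9 (0.0662). Within the coronal series Htr2a followed the mean of the 8 cerebral cortex markers with r = 0.92 and that of the 6 cerebellum markers with r = -0.94, over 10 fractions, and over all 22 fractions these values were 0.52 and -0.66. All 8 cortex markers passed the coronal test, which 19.8% of all probes passed. Among them, Tbr1 had an end-to-end difference of 7.56 ± 0.73.

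In horizontal fractions 1 to 6 Htr2a stood at -1.70, -1.98, -2.44, -1.09, -0.32 and -0.86. The first 3 were below the last 3 with no overlap, and those 3 were again the arrays with the slope out of range. The horizontal test was not passed (end-to-end 1.50 ± 0.50, limma adjusted p = 0.0959). Of the 8 cortex markers 1, Neurod6, passed this axis, which 6.57% of all probes passed. Its end-to-end difference had the opposite sign (-2.63 ± 0.51, limma adjusted p = 0.0225). Bcl11b and Slc17a7 were highest in horizontal fraction 5, as Htr2a was, and the other cortex markers in fraction 1 or 2. In the sagittal fractions Htr2a lay between -1.89 and -0.82 with a median of -1.50. The highest was fraction 6 and the lowest fraction 3, and the end-to-end difference was 0.57 with a 95% interval of -0.57 to 1.71 (limma adjusted p = 0.53).

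**Figure D1:**
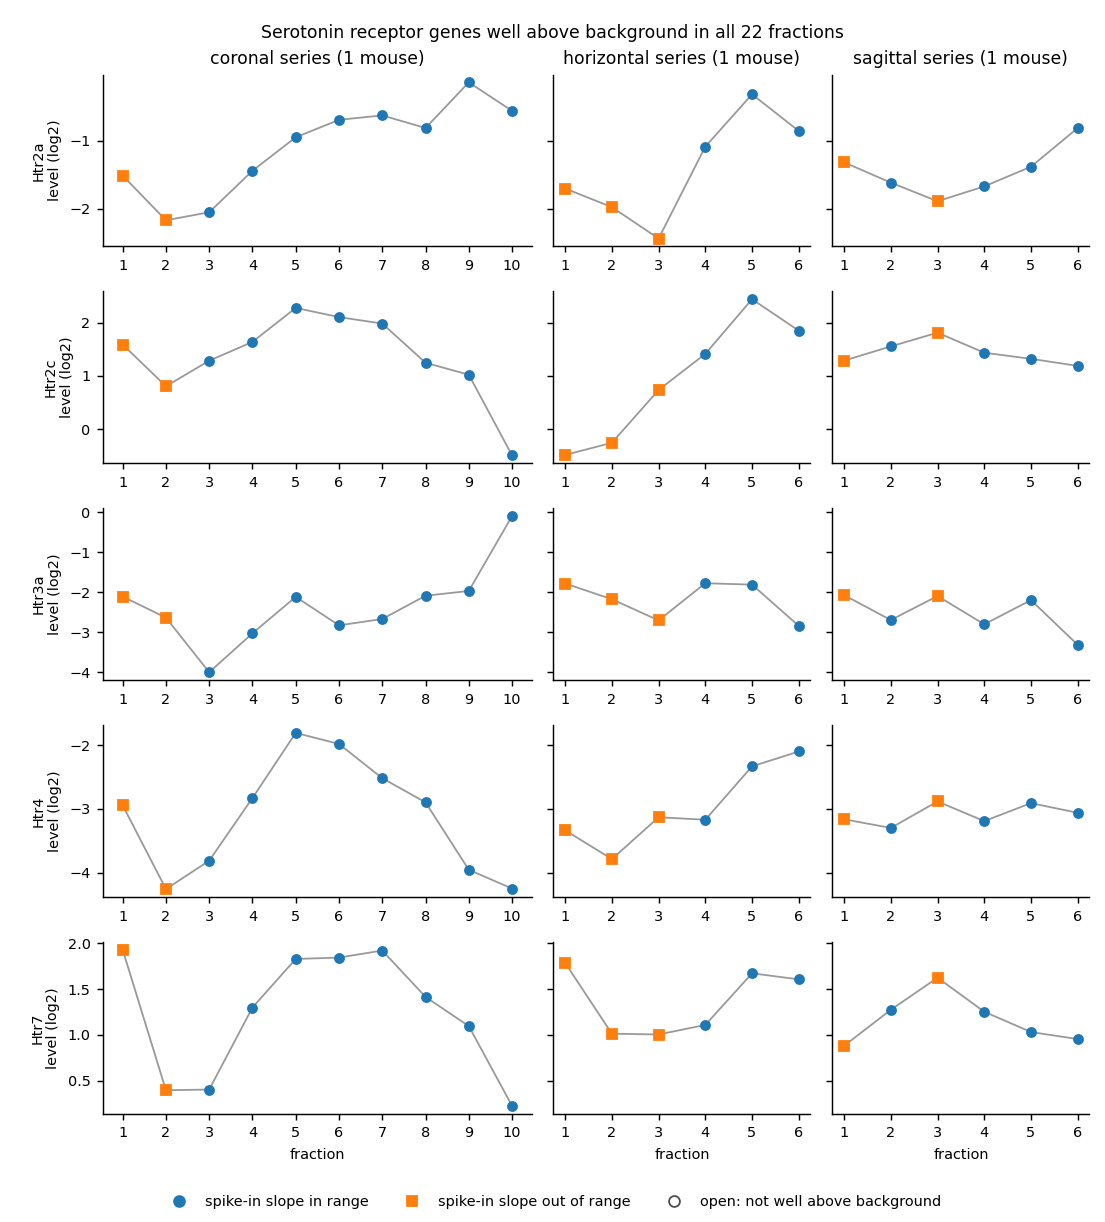
Level (log2 units from the array's 75th percentile, y axis, a separate scale for each gene) of the 5 receptor genes well above background in all 22 fractions, against fraction number in each series (x axis). Each point is 1 array without replicate, and orange squares are arrays with the spike-in slope out of range. Htr2c falls to -0.49 in coronal fraction 10, where Htr3a reaches its highest level of -0.09.

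Htr3a encodes the channel subunit without which the serotonin-gated channel does not form, and in the forebrain it marks interneurons born in the caudal ganglionic eminence. Its levels in coronal fractions 1 to 10 were -2.10, -2.63, -3.99, -3.02, -2.11, -2.82, -2.66, -2.08, -1.97 and -0.09. Fraction 10, which held the olfactory bulb markers, stood alone 1.87 log2 units above the next fraction, and fraction 3, at the cerebellar end, was lowest. The span was 14.9-fold, the largest among the 5 genes well above background in all 22 fractions. The fitted range was 2.74 log2 units and the end-to-end difference 1.90 ± 0.53 (limma adjusted p = 0.0119). Without fraction 10 the adjusted p was 0.227, so this call also rested on the olfactory bulb fraction.

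Of the 6 olfactory bulb markers, all passed the coronal test, which 19.8% of all probes passed. All were higher at the last fraction, with Sp8 showing a fitted range of 7.43 and Tbx21 of 7.00 log2 units. Their mean standardised level was 2.82 in coronal fraction 10 and 0.45 in fraction 9, and lay between -0.90 and -0.28 in the other 8. Htr3a followed this mean with r = 0.87 over the 10 coronal fractions and r = 0.68 over all 22. In the sagittal series the same markers were highest in fractions 3 to 5 (0.73, 1.14 and 0.68), while Htr3a stood there at -2.09, -2.80 and -2.19, between the lowest (-3.31, fraction 6) and the highest (-2.07, fraction 1) of that series. In the horizontal series the markers peaked in fractions 4 and 5, and Htr3a was at -1.77 and -1.81 there, beside -1.78 in fraction 1. Neither series gave a call for Htr3a (limma adjusted p = 0.794 for the horizontal axis and 0.42 for the sagittal linear term). The 95% interval of its sagittal end-to-end difference ran from -2.36 to 0.52.

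The caudal ganglionic eminence list held 7 genes, of which 6 passed the detection filter and 2 (Vip and Npas1) passed the coronal test, which 19.8% of all probes passed, and both were higher at the last fraction. The mean level of these 6 genes peaked in coronal fraction 7 (1.32 standardised units) and followed Htr3a with r = 0.12 over the 22 fractions. Adarb2, a usual marker of these interneurons, failed the filter and is not in that mean. It was well above background in coronal fractions 4, 7 and 10 and sagittal fraction 2, and was highest in coronal fraction 10 (-3.33). Calb2 also peaked in coronal fraction 10, but Vip peaked in fraction 9, Reln in 7, Prox1 in 6, and Npas1 and Nr2f2 in 5.

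Htr4, which encodes a Gs-coupled receptor of the hippocampus and basal ganglia, was high and low in much the same coronal fractions as Htr2c without passing the test. Its levels in coronal fractions 1 to 10 were -2.94, -4.26, -3.81, -2.83, -1.81, -1.98, -2.52, -2.90, -3.95 and -4.25. The middle fractions 5 and 6 were high, and fractions 2, 3, 9 and 10 were low, with a 5.46-fold span. The fitted range was 1.85 log2 units and the limma adjusted p was 0.053. Without coronal fraction 1, an array with the slope out of range, it was 0.000893, with the in-range arrays alone 0.0417, and over the 12 processing alternatives it lay between 0.0302 and 0.802. That fraction was also the hindbrain end, and without it the coronal calls over all probes rose from 7855 to 10713. In the horizontal series Htr4 stood at -3.33, -3.79, -3.13, -3.17, -2.33 and -2.10, with the last 2 fractions above the rest, and its end-to-end difference was 1.50 ± 0.64 (adjusted p = 0.162). The sagittal fractions spanned 0.42 log2 units, from -3.30 to -2.88, less than the residual SD of 0.54. The hippocampal marker mean (6 genes) followed Htr4 with r = 0.77 over 22 fractions and 0.79 over the coronal ones, and the thalamic mean with r = 0.55 and 0.87. The second probe of Htr4 was not well above background on any array.

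Htr7 encodes a Gs-coupled receptor known from the thalamus, hypothalamus and hippocampus. Its coronal levels were 1.93, 0.40, 0.40, 1.30, 1.83, 1.85, 1.92, 1.41, 1.1 and 0.22 in fractions 1 to 10. Fractions 1 and 5 to 7 lay within the residual SD of 0.50 of the highest, and fractions 2, 3 and 10 formed the low end. The coronal test was not passed (fitted range 1.01, limma adjusted p = 0.276), but without fraction 1, whose array had the slope out of range, the adjusted p was 0.000618, and with the in-range arrays alone it was 0.0156. Over all probes the coronal calls also rose without fraction 1, from 7855 to 10713, and fell to 4129 with the in-range arrays. In horizontal fractions the levels were 1.79, 1.01, 1.00, 1.11, 1.67 and 1.61, high at both ends, with a fitted range of 0.73 (adjusted p = 0.551). The sagittal fractions lay between 0.88 and 1.62, highest in fraction 3, and the end-to-end difference had a 95% interval of -1.49 to 1.27.

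Htr6, the remaining Gs-coupled member, is known as a striatal receptor. It was well above background in 7 fractions: coronal 1, 3, 4 and 5, horizontal 5, and sagittal 1 and 2. Where measured it was highest in coronal fraction 5 (-3.55) and in horizontal fraction 5 (-4.06). In the sagittal series fraction 2 stood at -4.15 and fraction 1 at -4.64, while fractions 3 to 6 were not well above background. The sagittal linear term was not passed (limma adjusted p = 0.0577), with an end-to-end difference of -1.73 ± 0.54 that rests partly on signals below the detection limit. It passed without sagittal fraction 1 (0.0408), without coronal fraction 5 (0.0265) and with no scaling between arrays (0.0368), and under quantile normalization it was 0.873. The striatal marker mean correlated with Htr6 at r = 0.02 over the 22 fractions and -0.33 over the coronal ones, most of which were not well above background.

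Among the Gi/o-coupled receptors, Htr1a encodes the inhibitory receptor of the raphe neurons themselves and of the hippocampus and cortex. It was well above background in 11 fractions. In the coronal series these were fraction 1 (-3.02), 4 (-3.20), 5 (-2.92), 6 (-3.81), 7 (-3.72) and 9 (-3.64). The highest of them, fraction 5, lay within the residual SD of 0.75 of fractions 1, 4 and 9, so no single fraction stood out. Fraction 4, where Slc6a4 (1.31), Tph2 (-1.58) and Fev (-1.32), genes that define serotonin neurons, had their highest coronal levels, was thus among the high fractions of Htr1a. Of the 9 serotonin neuron genes listed, 6 peaked in that fraction, while Lmx1b and Gata2 peaked in fraction 2, where Htr1a was not well above background, and Maob in fraction 10. In the horizontal series fraction 4 alone was well above background (-4.28), and in the sagittal series fractions 1 to 4 were (-3.19, -3.80, -3.75 and -3.90). No axis was passed, with limma adjusted p of 0.87, 0.677, 0.391 and 0.862 for the coronal, horizontal, sagittal linear and sagittal quadratic terms.

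Htr1d encodes a Gi/o-coupled receptor of nerve endings. It was well above background in 17 fractions, with its highest coronal levels in fractions 7 (-3.23) and 8 (-3.38), the striatal part of the axis, and its highest horizontal level in fraction 5 (-3.43). The sagittal fractions well above background lay between -4.31 and -3.79. Along the coronal axis Htr1d followed the mean of the 8 striatum markers with r = 0.73 (0.58 over all 22 fractions), but its coronal test was not passed (fitted range 0.63, limma adjusted p = 0.632), nor was the horizontal test (adjusted p = 0.135). Under quantile normalization the adjusted p was 0.0377 for the coronal axis and 0.0128 for the horizontal axis, both past the threshold. Its lowest levels, -5.32 in coronal fraction 3 and -5.92 in horizontal fraction 1, were not well above background. The fits along both axes thus rest partly on such signals.

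Htr1b encodes the other Gi/o-coupled receptor of nerve endings, known from striatal output neurons. It was well above background in 4 fractions: coronal 1 (-4.24), 3 (-4.33) and 7 (-3.91), and sagittal 1 (-1.55). The other 5 sagittal fractions were all not well above background, so the distance of sagittal fraction 1 from them was not measured. That level comes from 1 spot on an array whose spike-in slope was the lowest of all 22 (0.773). Because no horizontal fraction was well above background, the gene was left out of the fits. Htr5a, a Gi/o-coupled receptor of forebrain neurons, was not well above background on any array, which sets no level for it and does not show that it was absent.

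**Figure D2:**
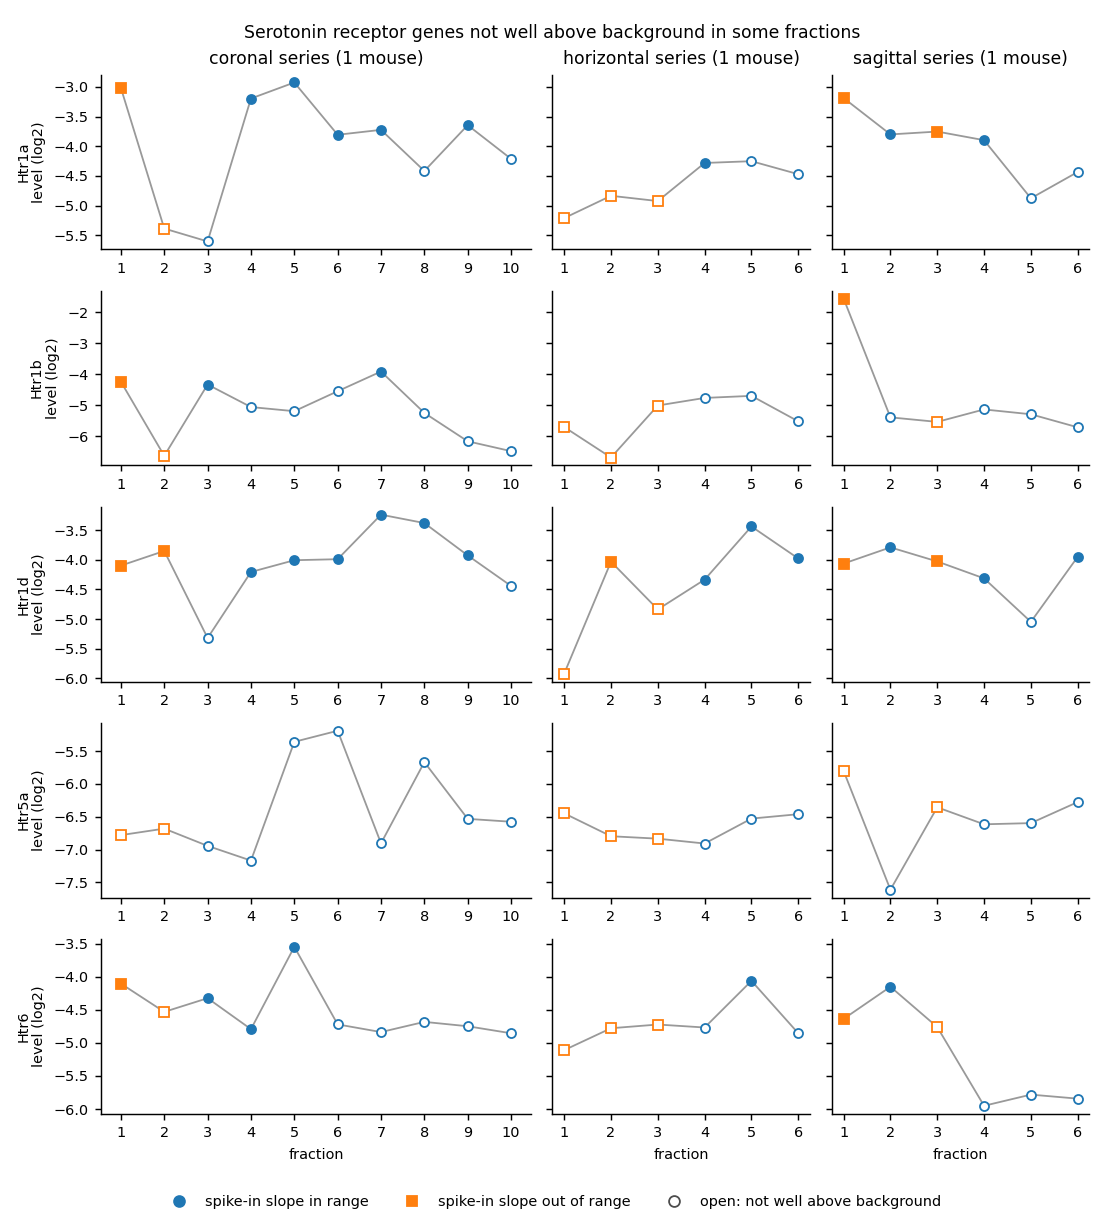
Level (log2 units from the array's 75th percentile, y axis, a separate scale for each gene) of the 5 receptor genes that were not well above background in some fractions, against fraction number (x axis). Open points are not well above background and bound the level from above, orange squares are arrays with the spike-in slope out of range, and Htr1b stands at -1.55 in sagittal fraction 1.

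The likeness between receptor genes was read from Pearson's r over the 22 fractions for the 28 pairs of the 8 genes tested. The nearest pairs were Htr4 with Htr7 (r = 0.79) and Htr2c with Htr4 (0.75), and Htr2c with Htr7 stood at 0.53. Within the 10 coronal fractions the same pairs reached 0.88, 0.86 and 0.82. In the horizontal fractions they were 0.56, 0.86 and 0.22, and in the sagittal fractions 0.24, 0.19 and 0.96. The difference between series was not tested. For each of Htr2c, Htr4 and Htr7, all 5 sagittal steps between neighbouring levels were below the residual SD. Every sagittal r with any of them thus rests on small differences. These 3 genes couple to different G proteins, Gq for Htr2c and Gs for the others. The Gq pair, Htr2a and Htr2c, gave r = 0.31 over all fractions, and -0.03, 0.79 and -0.88 within the coronal, horizontal and sagittal ones. Htr2c and Htr3a were the most unlike pair (r = -0.40), with coronal fraction 10 low for the first and high for the second, and within the coronal, horizontal and sagittal series their r was -0.63, -0.11 and 0.42. Centring each array on its own median instead of its 75th percentile moved Htr4 with Htr7 to 0.86, Htr2c with Htr4 to 0.82, Htr2a with Htr2c to 0.49 and Htr2c with Htr3a to -0.21. With the a107 level regressed out, Htr2a with Htr2c turned to -0.07 and Htr2c with Htr3a stood at -0.38.

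**Figure D3:**
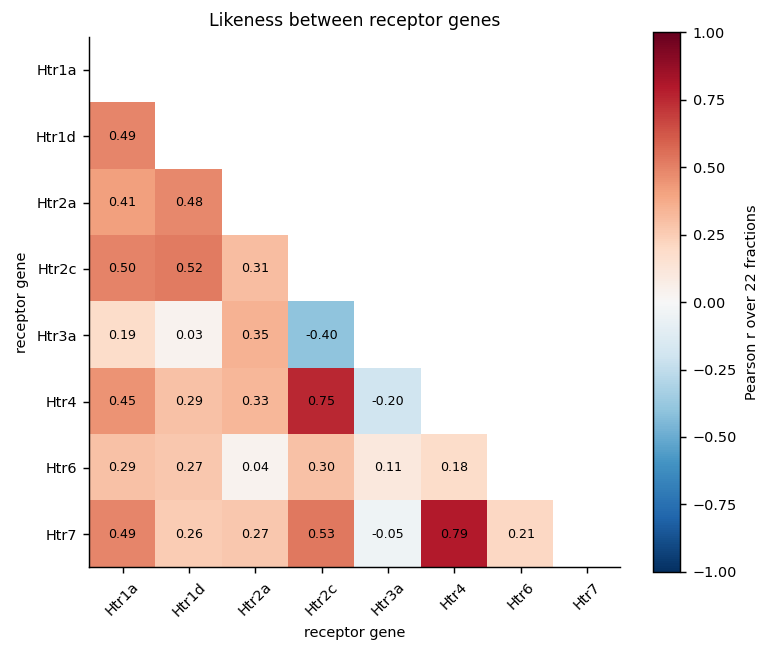
Pearson's r between the 8 receptor genes that passed the detection filter, over the 22 fractions (colour scale from -1 to 1, both axes list the genes). Htr4 with Htr7 (0.79) and Htr2c with Htr4 (0.75) are the nearest pairs, and Htr2c with Htr3a (-0.40) the most unlike.

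The genes of the whole array most like each receptor gene were ranked by the same r, over named genes with 1 probe each, the RefSeq-identified probe of highest median, so other probes could stand nearer. Over the other 39620 probes the highest r was 0.77 for Htr1d and 0.90 for Htr2a, above that of the genes ranked first for them. For Htr3a these were Prokr2 (r = 0.84), Prok2 (0.77) and Frzb (0.75). Prokr2 and Prok2 are a receptor and its ligand, prokineticin 2, known for guiding neuroblasts into the olfactory bulb. Prokr2 stood at 2.06 in coronal fraction 10 and at -4.51 in fraction 3, and Prok2 at 0.63 in fraction 10, so both shared the high and the low fraction of Htr3a. Prok2 was not well above background in fraction 3. Within the horizontal series, r of Htr3a with Prok2 was -0.03.

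For Htr4 the nearest genes were Npy2r (r = 0.91), a neuropeptide Y receptor, Grik4 (0.89), a kainate receptor subunit, and Kcnj5 (0.87), an inwardly rectifying potassium channel. Npy2r followed Htr4 with r = 0.98 over both the coronal and the horizontal fractions but with -0.22 over the sagittal fractions, where Htr4 hardly varied. For Htr2c they were Elovl4 (0.93), Rassf5 (0.92) and B3gnt6 (0.91), and for Htr2a they were Ubr1 (0.89), Dlg1 (0.88) and Lmbrd2 (0.87). Elovl4 makes very long chain fatty acids, and Dlg1 is a scaffold protein of synapses. For Htr7 they were Srsf12 (0.86), Camk2n2 (0.82) and Gpat3 (0.82), although Camk2n2 stood at -0.69 within the sagittal fractions, where Htr7 varied little. For Htr1a they were Igfbp3 (0.87), Mkrn3 (0.83) and Crtac1 (0.83). The genes nearest to Htr1d (AW011738, Pfkp and Tchh, 0.68 to 0.69) and Htr6 (Tpra1, Kctd6 and Samm50, 0.71 to 0.76) had lower r values. Htr1a, Htr1d and Htr6 were well above background in 11, 17 and 7 of the 22 fractions, so their r values rest partly on signals that were not well above background.

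The number of probes with r above 0.85 was 54 for Htr2c, 14 for Htr2a, 8 for Htr4, 1 for Htr1a, 1 for Htr7 and 0 for Htr1d, Htr3a and Htr6. With the a107 level regressed out of every probe, the counts became 11 for Htr2c, 0 for Htr2a, 5 for Htr4, 3 for Htr1a, 2 for Htr7 and 1 for Htr3a, and with each array centred on its median they were 216 for Htr2c, 136 for Htr2a, 73 for Htr4 and 12 for Htr7. The size of these sets thus moved with the scaling of the arrays.

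**Figure D4:**
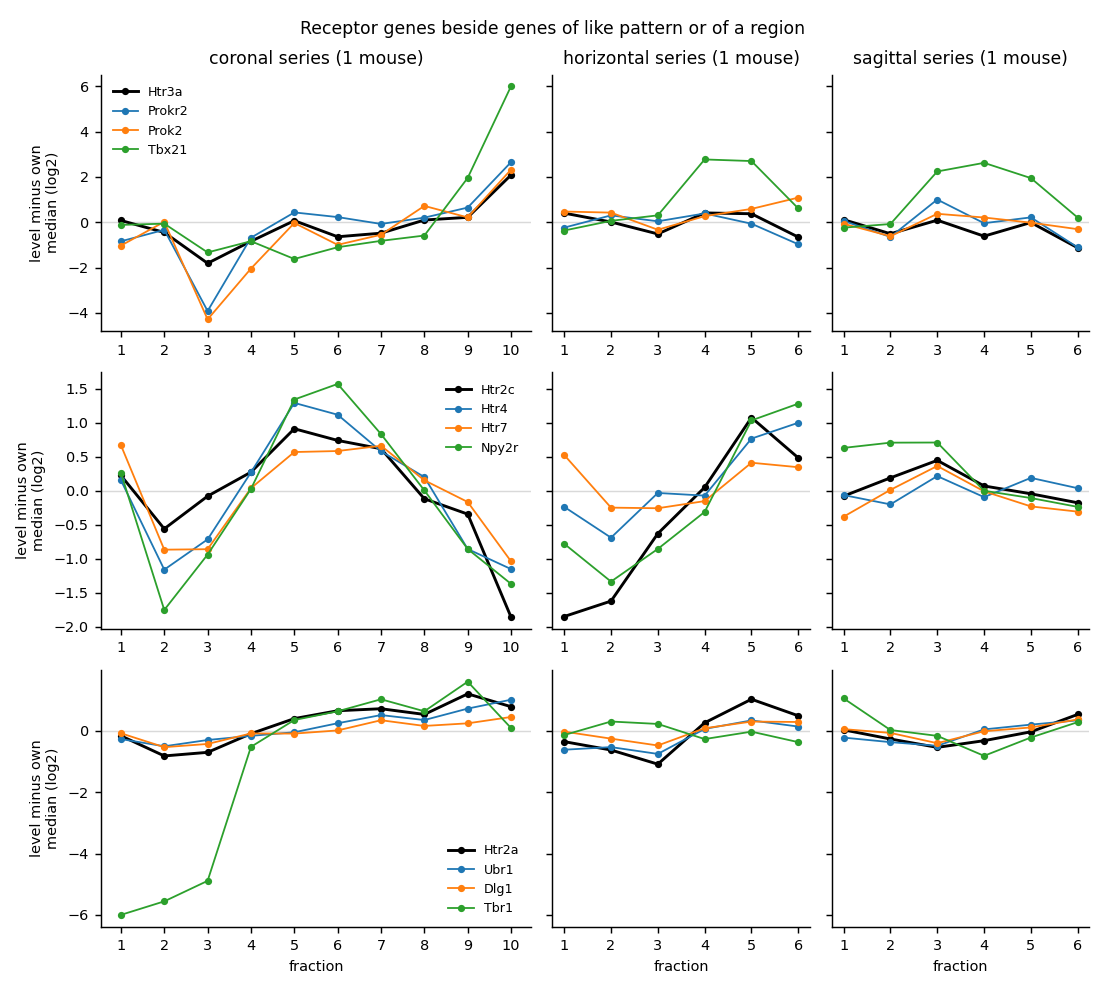
Level of each probe minus its own median over the 22 fractions (log2, y axis) against fraction number (x axis), 1 array per point. The panels show, from top to bottom, Htr3a with Prokr2, Prok2 and the olfactory bulb gene Tbx21, then Htr2c with Htr4, Htr7 and Npy2r, then Htr2a with Ubr1, Dlg1 and the cortical gene Tbr1. Htr3a, Prokr2, Prok2 and Tbx21 all peak in coronal fraction 10, and Htr2c, Htr4, Htr7 and Npy2r are all low in coronal fractions 2 and 10.

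Of the 4 other serotonin receptor genes on the array, 2 passed the detection filter and none passed a test. Htr5b, a Gi/o-coupled relative of Htr5a known from the raphe and the habenula, was well above background in all 22 fractions. Its coronal levels ran from -3.73 in fraction 9 to -0.62 in fraction 6, with fraction 4 next (-1.07), and its limma adjusted p was 0.0773. Htr1f, a Gi/o-coupled receptor, was well above background in 17 fractions and reached -2.82 in horizontal fraction 2, with a coronal adjusted p of 0.0698. Under other processing Htr1f passed the coronal test in 4 of 11 alternatives and Htr5b in 1 of 12, and with 1 fraction left out Htr1f passed in 1 of 22 fits and Htr5b in 2. Htr2b, the Gq-coupled receptor of peripheral tissue, was well above background in horizontal fractions 2 and 3, and Htr3b, the partner subunit of Htr3a, in coronal fraction 6.

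The source of the ligand was described by 9 genes of serotonin neurons, all measured. Along the coronal axis, where 19.8% of all probes passed, 4 of 9 did: Gata3, Ddc, Gata2 and Slc18a2, each lower at the last fraction, with fitted ranges of 4.19, 2.39, 2.11 and 1.92 log2 units. Ddc, the decarboxylase shared with dopamine neurons, also passed the horizontal test with an end-to-end difference of 3.33 ± 0.67. Tph2, the brain tryptophan hydroxylase, and Slc6a4 did not pass along any axis. The mean of these 9 genes correlated with Htr2c at r = 0.36 over the 22 fractions and 0.27 over the coronal ones. For Htr1a, which was well above background in 11 fractions, these values were 0.20 and 0.24. They were negative for Htr2a (-0.28 and -0.58), Htr3a (-0.26 and -0.38) and Htr1d (-0.02 and -0.39). For Htr4, Htr6 and Htr7 they were positive, the highest coronal value being 0.41 for Htr6. The 3 genes for breakdown of serotonin and its synthesis outside the raphe (Maoa, Aldh2 and Tph1) gave no call along the coronal or horizontal axis.

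Signalling partners showed calls along the coronal axis, where 19.8% of all probes passed, and none along the others. Of 8 Gi/o partners, 5 passed, and Gnao1, Gnaz, Gnai1 and Kcnj9 were higher and Kcnj6 lower at the last fraction. Of 6 Gq partners, 3 passed, and Plcb1 (1.73 ± 0.28), Gnaq (1.36 ± 0.32) and Gna11 (0.95 ± 0.26) were all higher at the last fraction, as Htr2a was (1.75 ± 0.42), while Htr2c had an end-to-end difference of the opposite sign, with a 95% interval of -1.88 to -0.12. Of 8 Gs partners, 3 passed, and Gnal (2.02 ± 0.48), Adcy1 (1.21 ± 0.46) and Adcy9 (0.29 ± 0.33) had positive end-to-end differences, Adcy9 passing through the curvature of its fit. The median fitted coronal ranges were 1.58, 0.76 and 1.30 log2 units for the 3 lists, beside 0.99 for all probes.

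The calls depended on which arrays entered the fit. With the slide as a block the coronal adjusted p was 0.327 for Htr2a, 0.224 for Htr2c and 0.209 for Htr3a. Coronal fractions 9 and 10 were hybridised on another slide than fraction 8, and fraction 2 was the only coronal fraction on its slide, so slide and position overlap at both places and the block takes fraction 2 out of the coronal fit. With no scaling between arrays Htr2a (0.0645) and Htr3a (0.0685) lost the coronal call while Htr4 (0.0444) gained it. With the 10 coronal arrays alone the adjusted p was 0.0823, 0.0769 and 0.0754, and for Htr2c with the 6 horizontal arrays alone it was 0.181. With the arrays whose slope was in range, Htr2a (0.0249), Htr2c (0.0116) and Htr3a (0.0457) passed the coronal test, as did Htr4, Htr7 and Htr1d (0.0378). The direction of no called gene turned under any alternative.

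**Figure D5:**
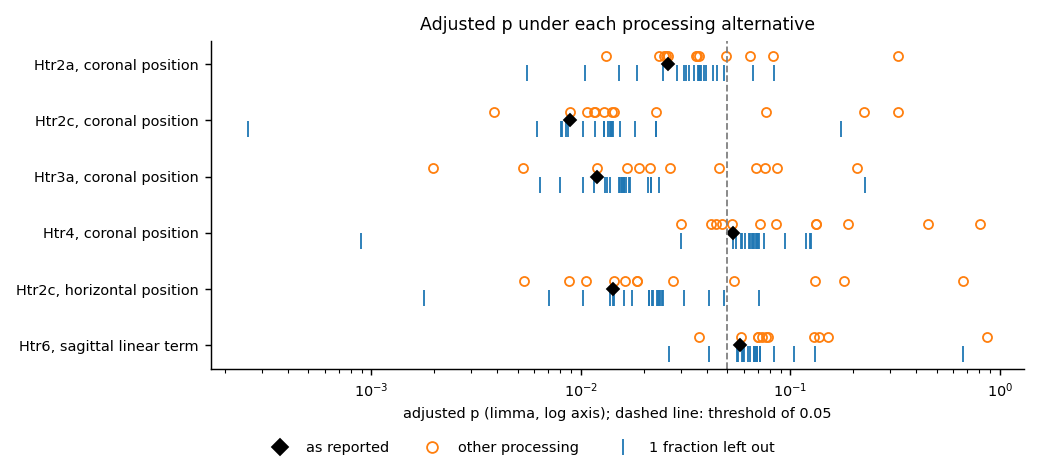
Adjusted p from limma (x axis, log scale) of 6 results (y axis) as reported (diamonds), under other processing (circles) and with 1 fraction left out (ticks), with the threshold of 0.05 dashed. The Htr2c and Htr3a coronal calls each have 1 tick beyond the threshold, the fit without coronal fraction 10.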

How the data were processed

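Total RNA of 22 brain fractions was labelled with Cy3 and hybridised to Agilent SurePrint G3 Mouse arrays, 1 array per fraction. The authors read each spot as a background-subtracted intensity on a linear scale (Feature Extraction 10.10.1.1, per the file headers). A second deposited table holds log2 values, and 100% of those of 47478 matched transcripts were within 0.02 of the intensity on the log2 scale less its array's 75th percentile. Here outlier spots (131 to 187 per array) and control spots were dropped, spots of a probe were averaged, and the same scaling was applied to 55600 probes. Symbols came from RefSeq accessions, which matched for 26553 of 28087 RefSeq probes. Each gene was read from its probe with the highest median. The filter kept 39621 probes.

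Position was tested with limma 3.58.1 in R 4.3.3 (9 coefficients, 13 residual degrees of freedom), and tables and figures were made with Python 3.11.15, numpy 2.4.6, pandas 2.3.3, scipy 1.17.1 and matplotlib 3.10.9. The error covers how single arrays scatter about the fitted curve, with no spread between animals. On simulated data with 200 of 39621 probes changed by 3 log2 units, 65%, 57%, 62.5% and 74.5% were recovered for the coronal, horizontal, sagittal linear and sagittal quadratic terms, with 5, 10, 4 and 8 false calls. The number of arrays limits the precision, and the spread between repeat spots of a probe had a median SD of 0.0656 for bright and 0.192 for dim probes. The receptor genes and gene lists were chosen with earlier results of these data known. Genes named beside them were the 3 of highest r, and up to 4 per list with the widest fitted range among those that passed, with defining markers. Alternatives covered scaling, background, filter, covariates, slide and each fraction left out. Normexp was run on the median spot signal.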

Additional observations from a re-analysis of the deposited data

Results flagged for a closer look

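Each receptor gene was checked in each series for a highest or lowest fraction far from the rest, by the gap to its neighbour over the whole range of the series, in 30 groups of 10 or 6 fractions. In 4 groups 1 fraction stood out. Chance flags about 1 in 20 groups of measured values, but some of these groups hold signals not well above background, so the 4 are not read against that rate. Htr1b was high in sagittal fraction 1 (-1.55), but the other 5 sagittal fractions were not well above background, so its distance from them was not measured. Htr3a was high in coronal fraction 10 (-0.094, gap 1.87, ratio 0.480) and Htr2c low in the same fraction (-0.49, gap 1.30, ratio 0.469). Htr6 was high in horizontal fraction 5 (-4.06), the only horizontal fraction in which it was well above background, so here too the distance was not measured.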

How the results depend on the processing

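No paired analysis was possible because fractions with the same number are positions along different axes in different mice. The number of receptor genes past the threshold in the coronal series was 3. It was 0 with slide as a fixed block, 1 with the linear term alone, 6 with the arrays whose slope was in range, 0 with the coronal arrays alone, and 1 to 5 with 1 fraction left out. In the horizontal series it was 1 and became 2 under quantile normalization, and 0 with a107 as a covariate, with the linear term alone, with the in-range arrays and with the horizontal arrays alone, and 0 to 1 with 1 fraction left out. For the sagittal linear term it was 0 and became 1 (Htr6) with no scaling between arrays, and 0 to 1 with 1 fraction left out. The sagittal quadratic term gave 0 in all 11 alternatives and all 22 fits with 1 fraction left out. The other counts stayed within 1.5 times, in 8 of 12 coronal, 7 of 12 horizontal and 11 of 12 sagittal linear alternatives, but not always with the same genes. With no scaling between arrays Htr2a (limma adjusted p = 0.0645) and Htr3a (0.0685) lost the coronal call and Htr4 (0.0444) gained it. The coronal calls over all probes moved too, from 7855 to 1598 with slide as a block, 4129 with the in-range arrays, 635 with the coronal arrays alone and 10713 without coronal fraction 1. The horizontal calls went from 2604 to 0 with the horizontal arrays alone (10611 at an unadjusted p under 0.05 in limma). They were 101 with a107 as a covariate, 206 with the linear term alone and 13 with the in-range arrays. The sagittal linear calls went from 4046 to 4 with the linear term alone and to 0 without sagittal fraction 6. The fits with fewer arrays have fewer residual degrees of freedom. For the other settings the cause was not tested. No called gene reversed direction. Array medians spread over 0.60 log2 units (-1.81 to -1.21), and with each array centred on its median Htr2a (limma adjusted p = 0.0355), Htr2c (0.0144), Htr3a (0.0214) and Htr4 (0.0472) passed the coronal test. Normexp on the median spot signal, chosen after seeing the data, gave the same 3 coronal genes.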
